A study of Mus musculus with 6 samples.

Results

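The genes described are 58 endothelial genes of the mouse kidney, chosen by name from what is known of blood and lymph vessels and grouped by vessel bed. Of these, 56 were listed in the deposited tables and 50 reached 1 FPKM (a level per length of transcript and per library size) in 3 or more of 6 libraries, out of 11698 genes that did. Kidneys of 24-month-old mice were compared between 3 samples labelled fat-1 knockin (fat-1 here) and 3 labelled WT, and the labels give no treatment, sex, strain or batch. The fat-1 gene comes from the nematode Caenorhabditis elegans and encodes a desaturase that makes omega-3 from omega-6 fatty acids. The sources used here name neither the promoter that drives it nor a founder line. Every comparison rests on the genotype labels alone, which were not tested against RNA of the transgene. The comparison asks what the gene changes in the aged kidney, here in the RNA of its vessels.

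Endothelial cells line every vessel and share a set of junction proteins, growth factor receptors and transcription factors, among them the ETS factors Erg and Fli1 and the SoxF factors Sox7, Sox17 and Sox18. The kidney has several kinds of endothelium. Glomerular and peritubular capillaries are fenestrated and depend on vascular endothelial growth factor (VEGF) made by neighbouring epithelial cells. Arteries are specified by Notch signalling, Sox17 and connexins, and lymphatic vessels by Prox1 and the receptor Flt4. Grouping genes by bed is a simplification, since Emcn, Dll4 and Flt4 are found in more than one bed. In whole kidney, more or fewer endothelial cells and more or less RNA per cell cannot be told apart.

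Most endothelial genes averaged higher in fat-1 kidneys than in WT kidneys, and 1 of them passed the test across all genes. Of the 50 tested genes, 45 had a positive log2(FPKM + 1) difference (fat-1 minus WT), with a median of 0.58, whereas 51.2% of all tested genes were positive and their median was 0.01. With the Benjamini-Hochberg adjustment over all genes in limma, 1 gene passed an adjusted p of 0.05, Plvap, which rose, and 0 fell; over all genes 0.18% were called, 0.12% higher and 0.0598% lower. With any 1 library left out, 0 of the 50 passed. At an unadjusted p under 0.05 in limma, 28 of the 50 were higher and 0 lower, against 5.8% and 4.16% of all tested genes. In 27 of the 50 every fat-1 library lay above every WT library, an arrangement that 8.33% of all tested genes showed, and 0 showed the opposite one, against 6.86% of all genes. These counts describe the list and are not independent evidence of its direction, since the genes were chosen with earlier results of these data known.

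By bed, the median log2 difference was 0.74 over 7 capillary and glomerular genes, 0.59 over 34 pan-endothelial genes, 0.34 over 2 lymphatic genes and -0.03 over 7 arterial genes. All 7 capillary and glomerular genes and 33 of 34 pan-endothelial genes had a positive difference, against 3 of 7 arterial genes. Groups did not overlap, with fat-1 higher, for 5 of 7 capillary and glomerular, 19 of 34 pan-endothelial, 1 of 2 lymphatic and 2 of 7 arterial genes. Over all tested genes the share was 8.33%. The difference between beds was not tested as such, since the genes of a bed are not replicates. Of the 7 arterial genes, 5 are also known in other kidney cells (median -0.03). The other 2, Dll4 (0.54) and Sox17 (-0.28), went in opposite directions. Of the 7 capillary and glomerular genes, 4 are also known in other kidney cells (median 0.67), and the other 3 had a median of 0.96. With any 1 library left out, the lymphatic median lay anywhere between 0.03 and 0.58.

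**Figure D1:**
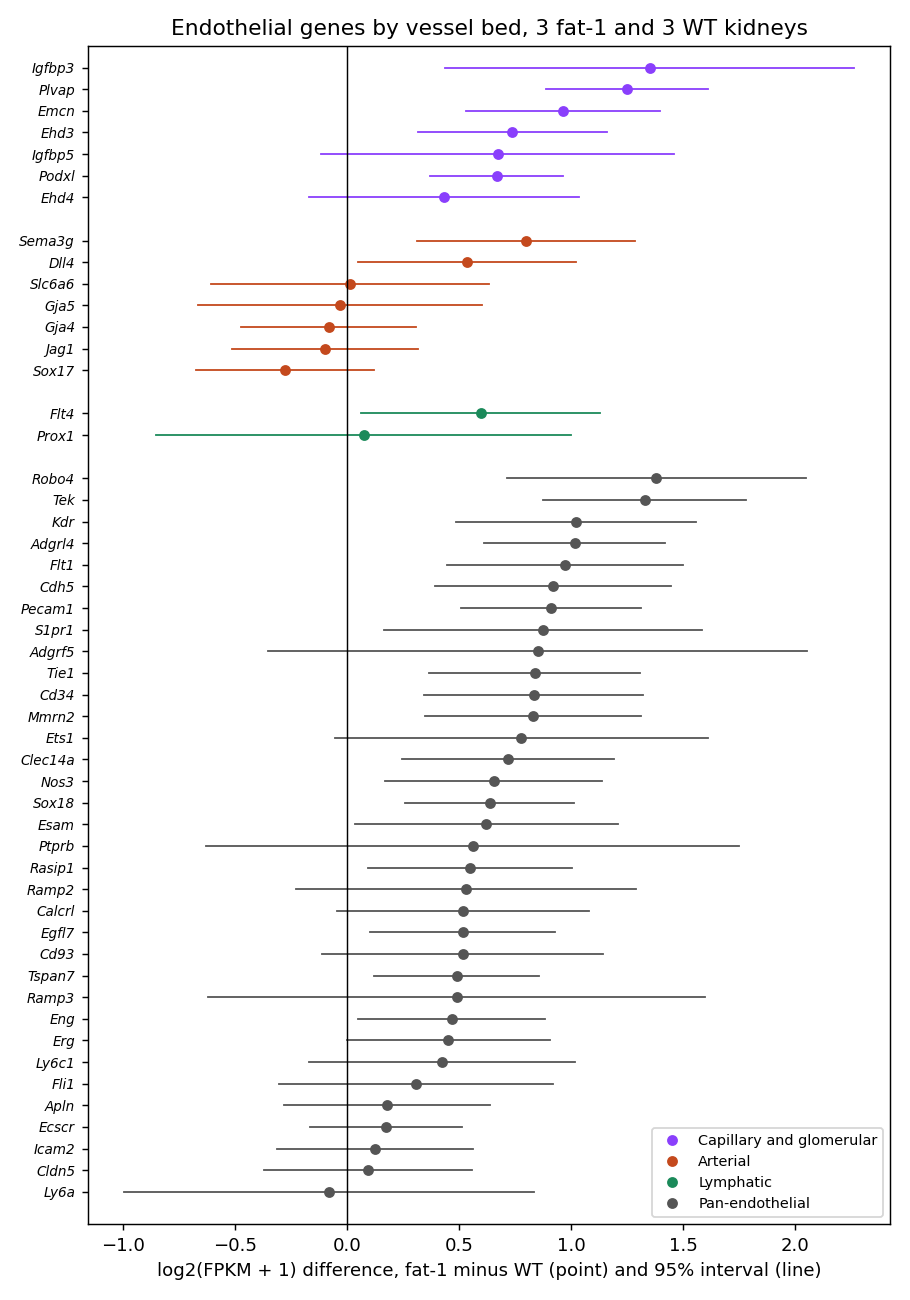
Difference in log2(FPKM + 1), fat-1 minus WT (horizontal axis), for the 50 tested endothelial genes, with the 95% interval from limma (3 libraries per group), grouped by vessel bed. All 7 capillary and glomerular genes lie right of 0, while 4 of 7 arterial genes lie left of 0.

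The libraries differed in other cell types. Summed FPKM was between 387488 and 421497 in fat-1 and between 391237 and 431081 in WT, and correlations of log2 values were 0.938 to 0.972 within groups and 0.938 to 0.962 across groups. WT replicate 1 stood apart by 10 macrophage markers, which summed to 901 FPKM there and to 107 FPKM in the lowest WT library, against 118 to 228 FPKM in fat-1. Globin and other erythrocyte markers summed to between 14.9 and 538 FPKM in fat-1 and between 138 and 242 FPKM in WT. The depth is unknown, because the values are FPKM. Separate animals are not stated for the samples, and p-values then cover the spread between them, which may be technical.

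Plvap, which builds the diaphragm across capillary fenestrae (chromosome 8, 71497765 to 71511752, minus strand, mm10), had the smallest p of the 50 genes. It measured 69.0, 69.3 and 91.0 FPKM in the fat-1 kidneys and 33.0, 27.7 and 33.6 FPKM in the WT kidneys. All fat-1 libraries lay above all WT libraries, and the log2 difference was 1.25 ± 0.15 (SE; adjusted p = 0.0496 in limma). That p lay at the threshold: the difference stayed between 1.12 and 1.32 when any 1 library was left out, while the adjusted p was then 0.0647 to 0.197.

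The other capillary genes also averaged higher in fat-1, without passing the test. Emcn, a sialomucin of capillary and venous endothelium, measured 25.2, 27.6 and 38.3 FPKM in fat-1 against 14.1, 13.5 and 17.2 FPKM in WT (log2 difference 0.96 ± 0.18 SE; limma adjusted p = 0.118). Igfbp3, a binding protein of insulin-like growth factors that marks cortical capillaries in mouse kidney, measured 98.4, 228 and 113 FPKM in fat-1 against 74.0, 35.9 and 55.2 FPKM in WT (1.35 ± 0.38; adjusted p = 0.270). Fat-1 replicate 2 was the highest library by far, and the groups did not overlap. Igfbp5, a related binding protein that tubule and stromal cells also make, overlapped between groups, at 53.1, 65.7 and 131 FPKM in fat-1 and 56.8, 41.9 and 46.2 FPKM in WT (0.67 ± 0.33; adjusted p = 0.604).

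Glomerular genes averaged higher in fat-1 as well. Ehd3, a membrane trafficking ATPase that is largely restricted to glomerular endothelium in mouse kidney, measured 8.62, 13.4 and 10.1 FPKM in fat-1 against 5.41, 5.88 and 6.48 FPKM in WT (log2 difference 0.74 ± 0.18 SE; limma adjusted p = 0.189). Podxl, a surface sialomucin of podocytes and endothelium, measured 46.3, 56.0 and 49.3 FPKM in fat-1 against 34.6, 29.0 and 30.6 FPKM in WT (0.67 ± 0.12; adjusted p = 0.112). In both genes the groups were separate. Ehd4, a relative of Ehd3 that tubules also express, overlapped (0.43 ± 0.25; adjusted p = 0.688). Podocyte markers, which share the glomerulus with these genes, had a positive difference in 9 of 11 tested genes, with a median of 0.39. In 5 every fat-1 library lay above every WT library, against 8.33% of all tested genes. The podocyte list also holds Podxl, and its summed level was 140 to 159 FPKM in fat-1 and 98.4 to 118 FPKM in WT. Markers of mesangial cells and pericytes were positive in 9 of 10, with a median of 0.34. Their part in the endothelial result was not tested.

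**Figure D2:**
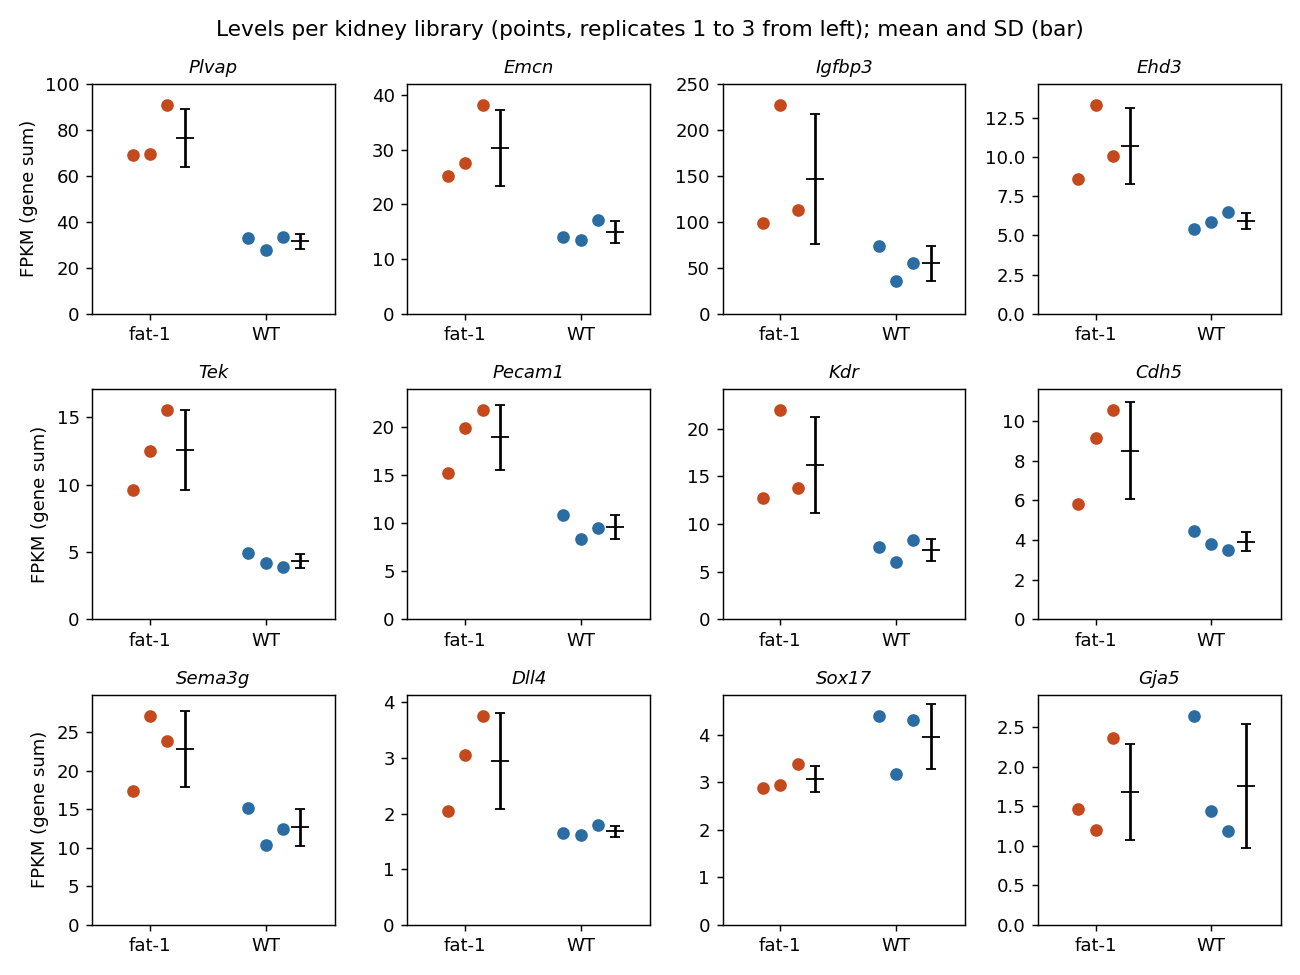
FPKM (vertical axis, gene sums) of 12 endothelial genes in each library, 3 fat-1 to the left and 3 WT to the right, with mean and SD as a bar. Plvap lay between 69.0 and 91.0 FPKM in fat-1 and between 27.7 and 33.6 FPKM in WT, while Sox17 and Gja5 overlapped between groups.

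Receptors of growth and guidance factors, with the phosphatase Ptprb, formed a group of 8 tested genes. All 8 were positive, with a median of 0.91. In 7 every fat-1 library lay above every WT library, against 8.33% of all tested genes. Tek, the receptor of angiopoietins (chromosome 4, 94739289 to 94874976, plus strand), measured 9.64, 12.5 and 15.5 FPKM in fat-1 against 4.94, 4.14 and 3.91 FPKM in WT. Every fat-1 library lay above every WT library, with a log2 difference of 1.33 ± 0.19 (SE; limma adjusted p = 0.0655). Tie1, its orphan coreceptor, measured 7.26, 9.10 and 12.3 FPKM in fat-1 against 4.81, 4.30 and 5.29 FPKM in WT (0.84 ± 0.20; adjusted p = 0.181). Ptprb, a phosphatase that dephosphorylates Tek, overlapped, at 1.50, 7.11 and 8.83 FPKM in fat-1 and 2.91, 2.77 and 3.20 FPKM in WT (0.56 ± 0.50; adjusted p = 0.834), with fat-1 replicate 1 the lowest of the 6 libraries.

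Both main VEGF receptors averaged higher in fat-1. Kdr, the main signalling receptor of VEGF-A, measured 12.8, 22.0 and 13.8 FPKM in fat-1 against 7.59, 5.99 and 8.29 FPKM in WT (log2 difference 1.02 ± 0.23 SE; limma adjusted p = 0.156). Flt1, a receptor that binds VEGF-A tightly with weak signalling, measured 11.1, 18.3 and 19.0 FPKM in fat-1 against 8.14, 6.41 and 8.12 FPKM in WT (0.97 ± 0.22; adjusted p = 0.170). In both, every fat-1 library was above every WT library. Robo4, an endothelial relative of the axon guidance receptors, was low, at 2.70, 3.14 and 4.44 FPKM in fat-1 and 0.24, 1.33 and 0.64 FPKM in WT (1.38 ± 0.28; adjusted p = 0.131). Eng, a coreceptor of bone morphogenetic proteins that macrophages and stroma also carry, differed by 0.47 ± 0.18 (adjusted p = 0.442).

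Flt1 was listed as 2 transcripts, and both averaged higher in fat-1. The long transcript has 30 exons and encodes the full receptor, and the short one has 13 exons and a coding region of 688 codons, against 1333 in the long one; the soluble form of this receptor is known to lack the kinase domain. The short transcript measured 3.49, 7.05 and 7.61 FPKM in fat-1 and 2.17, 1.90 and 2.05 FPKM in WT, and the long one 7.58, 11.3 and 11.4 FPKM in fat-1 and 5.97, 4.51 and 6.07 FPKM in WT. The share of the short transcript in Flt1 was 36.7% ± 4.51 in fat-1 and 27.2% ± 2.20 in WT (SD, n = 3; exact two-sided permutation p = 0.1, the smallest that 3 against 3 allows). Flt1 was singled out after its values were seen. Across all members, 110 transcripts were listed, and 30 of 56 genes had 1. Of the 73 tested transcripts, 61 were positive, against 50.4% of all 17119 tested transcripts. Groups did not overlap for 29 with fat-1 higher and 1 with fat-1 lower, against 7.4% and 6.6% of all transcripts. In limma 0 were called higher and 0 lower (smallest adjusted p = 0.0990), against 0.0467% and 0.0117% of all transcripts.

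Promoter windows from RefSeq (build GRCm38.p6, the same coordinates as mm10) were matched for 34 members, in 42 windows. These include windows of members whose RNA was not tested, such as Notch4, Tal1 and Meox2. The 250 bases before the start are shown for Tek, Adgrl4 and Emcn, which were among the most clearly higher members with a window, and for the arterial connexin gene Gja4, whose groups overlapped. The Tek window ends at the start of transcript Tek-202, which made up 1.65% of Tek FPKM in fat-1 and 1.24% in WT. Tek-201, with 83.5% in fat-1 and 85.1% in WT, starts further downstream, at 94739518. Capitals mark the ETS core motifs CCGGAA and CAGGAA, on either strand (TTCCTG is CAGGAA read on the other strand).
Tek (chr4:94739039-94739288, plus strand): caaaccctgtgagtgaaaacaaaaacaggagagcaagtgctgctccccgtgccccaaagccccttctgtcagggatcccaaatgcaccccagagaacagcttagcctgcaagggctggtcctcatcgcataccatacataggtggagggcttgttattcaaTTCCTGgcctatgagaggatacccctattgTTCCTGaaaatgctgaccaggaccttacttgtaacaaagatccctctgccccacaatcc
Adgrl4 (chr3:151437632-151437881, plus strand): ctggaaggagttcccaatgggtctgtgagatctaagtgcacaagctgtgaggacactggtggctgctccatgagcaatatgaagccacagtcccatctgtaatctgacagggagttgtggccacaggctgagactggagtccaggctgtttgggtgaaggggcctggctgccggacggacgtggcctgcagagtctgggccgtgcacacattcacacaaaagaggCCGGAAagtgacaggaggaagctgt
Emcn (chr3:137340828-137341077, plus strand): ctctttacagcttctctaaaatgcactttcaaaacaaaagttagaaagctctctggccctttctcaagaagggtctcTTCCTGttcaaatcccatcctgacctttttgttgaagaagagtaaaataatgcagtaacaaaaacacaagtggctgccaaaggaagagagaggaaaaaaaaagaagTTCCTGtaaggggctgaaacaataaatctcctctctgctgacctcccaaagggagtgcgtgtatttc
Gja4 (chr4:127314040-127314289, minus strand): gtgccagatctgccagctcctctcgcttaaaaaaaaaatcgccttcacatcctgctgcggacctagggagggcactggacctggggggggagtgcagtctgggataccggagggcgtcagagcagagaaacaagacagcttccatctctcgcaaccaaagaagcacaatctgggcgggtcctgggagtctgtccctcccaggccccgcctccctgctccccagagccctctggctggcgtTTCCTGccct
The letters CAGGAA were present in 38.1% of the members' windows and in 25.7% of all 32851 windows of the same length in the table, and CCGGAA in 9.52% and 12.03%. The motifs were counted separately, so a window can hold both. By bed, 16 of 28 pan-endothelial, 2 of 5 capillary and glomerular, 2 of 6 arterial and 0 of 3 lymphatic windows held either motif, against 35.1% of all windows and 47.6% of the members' windows. The SOX core AACAAT was in 9.52% of the members' windows and 9.42% of all, and the GATA core AGATAA in 4.76% and 9.99%. A match of letters is a description only.

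Junction and surface genes differed among themselves. Cdh5, the cadherin of endothelial adherens junctions, measured 5.81, 9.17 and 10.6 FPKM in fat-1 against 4.47, 3.79 and 3.51 FPKM in WT (log2 difference 0.92 ± 0.22 SE; limma adjusted p = 0.190). Pecam1, an adhesion molecule of endothelium and some leukocytes, measured 15.2, 19.9 and 21.8 FPKM in fat-1 against 10.8, 8.34 and 9.47 FPKM in WT (0.91 ± 0.17; adjusted p = 0.111). Both were separate between groups, as was the junction gene Esam, with a difference of 0.62 ± 0.25 (limma adjusted p = 0.468). Cldn5, a tight junction protein grouped here as pan-endothelial and also known in podocytes, was not, at 5.04, 4.89 and 6.40 FPKM in fat-1 and 6.08, 3.79 and 5.40 FPKM in WT (0.09 ± 0.20; adjusted p = 0.956). Nor were the adhesion molecule Icam2 (0.12 ± 0.18; adjusted p = 0.916) and Ecscr (0.17 ± 0.14; adjusted p = 0.818). Ly6c1 and Ly6a, surface antigens of endothelium and leukocytes with near-identical neighbours whose reads may be split between them, overlapped between groups. Ly6a lay between 226 and 467 FPKM in fat-1 and between 240 and 489 FPKM in WT, highest in fat-1 replicate 1 and in WT replicate 1.

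The remaining surface and secreted proteins lay between these. Cd34 differed by 0.83, Clec14a by 0.72, Tspan7 by 0.49, Egfl7 by 0.52 and the matrix protein gene Mmrn2, a ligand of Clec14a and Cd93, by 0.83 on the log2 scale, each with separate groups and none with an adjusted p under 0.05 in limma. Mmrn2 measured 5.44, 6.68 and 9.34 FPKM in fat-1 and 3.73, 3.09 and 3.70 FPKM in WT. Cd93 (0.52) overlapped because WT replicate 1, at 4.55 FPKM, lay above fat-1 replicate 1, at 3.62 FPKM. The secreted peptide gene Apln differed by 0.18 ± 0.19 (SE), and its groups overlapped as well.

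Among G protein-coupled receptors, Adgrl4, an adhesion receptor of angiogenic endothelium, was the clearest. It measured 13.9, 18.1 and 21.6 FPKM in fat-1 against 8.19, 7.77 and 8.69 FPKM in WT, with a log2 difference of 1.02 ± 0.17 (SE; limma adjusted p = 0.0956). S1pr1, the receptor of sphingosine 1-phosphate that steadies the endothelial barrier, differed by 0.87 ± 0.30 (adjusted p = 0.374). Its groups overlapped, since fat-1 replicate 1, at 3.79 FPKM, lay below WT replicate 1, at 4.17 FPKM. The adrenomedullin receptor Calcrl and its partners Ramp2 and Ramp3 differed by 0.52, 0.53 and 0.49 with overlapping groups. Adgrf5, at 8.66, 17.1 and 27.0 FPKM in fat-1 and 13.1, 10.6 and 4.07 FPKM in WT, overlapped between groups (0.85 ± 0.50).

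Nos3, the endothelial nitric oxide synthase, measured 2.16, 2.15 and 3.49 FPKM in fat-1 against 1.47, 1.04 and 1.27 FPKM in WT, a separation at low level (log2 difference 0.66 ± 0.20 SE; limma adjusted p = 0.321). Rasip1, a Ras-interacting protein needed for vessel lumens, differed by 0.55 ± 0.19 (adjusted p = 0.384). The 4 tested transcription factors of the pan-endothelial group had a median difference of 0.55. In 2 of them every fat-1 library lay above every WT library, against 8.33% of all tested genes. Sox18 measured 7.27, 7.46 and 7.57 FPKM in fat-1 against 5.07, 3.50 and 4.83 FPKM in WT (0.64 ± 0.16; adjusted p = 0.205). Erg measured 2.93, 3.92 and 4.65 FPKM in fat-1 against 2.91, 2.28 and 2.32 FPKM in WT (0.45 ± 0.19; adjusted p = 0.499), with fat-1 replicate 1 barely above WT replicate 1. Fli1 and Ets1, which leukocytes also express, overlapped (0.31 ± 0.26 and 0.78 ± 0.35; adjusted p = 0.823 and 0.542).

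Arterial genes stood near 0 or below it, apart from 2 of 7. Sox17, a SoxF factor of arteries, measured 2.89, 2.95 and 3.39 FPKM in fat-1 and 4.41, 3.17 and 4.31 FPKM in WT, the most negative difference of the 50 (log2 difference -0.28 ± 0.17 SE; limma adjusted p = 0.700). Its 95% interval ran from -0.67 to 0.12. The connexin genes Gja4 and Gja5 couple arterial endothelium and are also known in smooth muscle (Gja4) and renin cells (Gja5). They differed by -0.08 ± 0.16 and -0.03 ± 0.27 (limma adjusted p = 0.952 and 0.993), with intervals of -0.47 to 0.31 and -0.66 to 0.60. Gja5 measured 1.47, 1.199 and 2.36 FPKM in fat-1 and 2.65, 1.44 and 1.18 FPKM in WT, and the sign of its difference changed when single libraries were left out (-0.21 to 0.19). The Notch ligand gene Jag1 (-0.10 ± 0.17) and the taurine transporter gene Slc6a6 (0.01 ± 0.26), both also expressed by tubules, overlapped.

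Sema3g and Dll4 were the arterial genes with separate groups. Sema3g, a secreted semaphorin of arteries that podocytes also make, measured 17.4, 27.2 and 23.9 FPKM in fat-1 against 15.1, 10.3 and 12.4 FPKM in WT (log2 difference 0.80 ± 0.20 SE; limma adjusted p = 0.217). Dll4, a Notch ligand of arteries and of sprouting capillaries, measured 2.04, 3.05 and 3.76 FPKM in fat-1 against 1.65, 1.61 and 1.79 FPKM in WT (0.54 ± 0.20; adjusted p = 0.442). Notch4, its receptor, was listed but reached 1 FPKM in only 2 libraries, at 0.79, 1.17 and 3.53 FPKM in fat-1 and 0.77, 0.72 and 0.67 FPKM in WT, and was not tested. Smooth muscle markers, which surround arteries, had a median difference of -0.00 over 6 tested genes.

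Of the lymphatic genes, Lyve1 was not analysed here. Flt4, the receptor of VEGF-C, which fenestrated capillaries also carry, measured 1.43, 2.47 and 3.07 FPKM in fat-1 against 1.23, 1.07 and 1.16 FPKM in WT (log2 difference 0.60 ± 0.22 SE; limma adjusted p = 0.442). Prox1, the factor that specifies lymphatic endothelium and is also present in tubule cells, measured 0.48, 0.68 and 3.05 FPKM in fat-1 and 1.03, 1.31 and 0.84 FPKM in WT (0.08 ± 0.39; adjusted p = 0.987). Its highest and its lowest values were both in fat-1, and the sign of its difference changed when single libraries were left out (-0.38 to 0.35). Members that did not reach the filter were Vwf, Hey1, Sox7, Tal1, Aplnr and Notch4; Vwf, the clotting factor of larger vessels, was at 0.12, 0.07 and 1.01 FPKM in fat-1 and 0.31, 0.11 and 0.20 FPKM in WT.

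Ratios to Cdh5 within a library asked whether a gene differed beyond a pan-endothelial gene of the same sample. For 11 such log2 ratios, the exact two-sided permutation test over 6 libraries cannot give a p under 0.1, and none passed (smallest adjusted p = 0.220). Sox17 relative to Cdh5 was -1.19 ± 0.33 in fat-1 and 0.01 ± 0.22 in WT (SD, n = 3; exact permutation p = 0.1), and Gja5 relative to Cdh5 was -1.82 ± 0.37 in fat-1 and -0.87 ± 0.25 in WT (exact permutation p = 0.1), with groups that did not overlap. Tek relative to Cdh5 was 0.52 ± 0.12 in fat-1 and 0.11 ± 0.01 in WT (exact permutation p = 0.1). Dll4 relative to Cdh5 was -1.26 ± 0.09 in fat-1 and -0.87 ± 0.18 in WT, and Flt4 relative to Cdh5 was -1.51 ± 0.03 in fat-1 and -1.19 ± 0.12 in WT (exact permutation p = 0.1 for each), both without overlap. With a pseudocount of 0.1 the Flt4 groups overlapped, at -1.95, -1.85 and -1.75 in fat-1 and -1.79, -1.74 and -1.52 in WT, and the difference was -0.17 instead of -0.32, while Sox17, Gja5, Dll4 and Tek stayed without overlap. Plvap relative to Cdh5 overlapped, at 3.05 ± 0.29 in fat-1 and 2.72 ± 0.19 in WT (exact permutation p = 0.2), as did Ehd3, Igfbp3, Igfbp5, Sema3g and Kdr (exact permutation p between 0.4 and 0.9). The ratios are of FPKM + 1, which compresses those of low genes. Cdh5 itself differed by 0.92, above the pan-endothelial median of 0.59. A lower ratio to Cdh5 therefore does not place a gene below pan-endothelial genes in general. Dll4 (0.54) and Flt4 (0.60) had differences near that median.

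**Figure D3:**
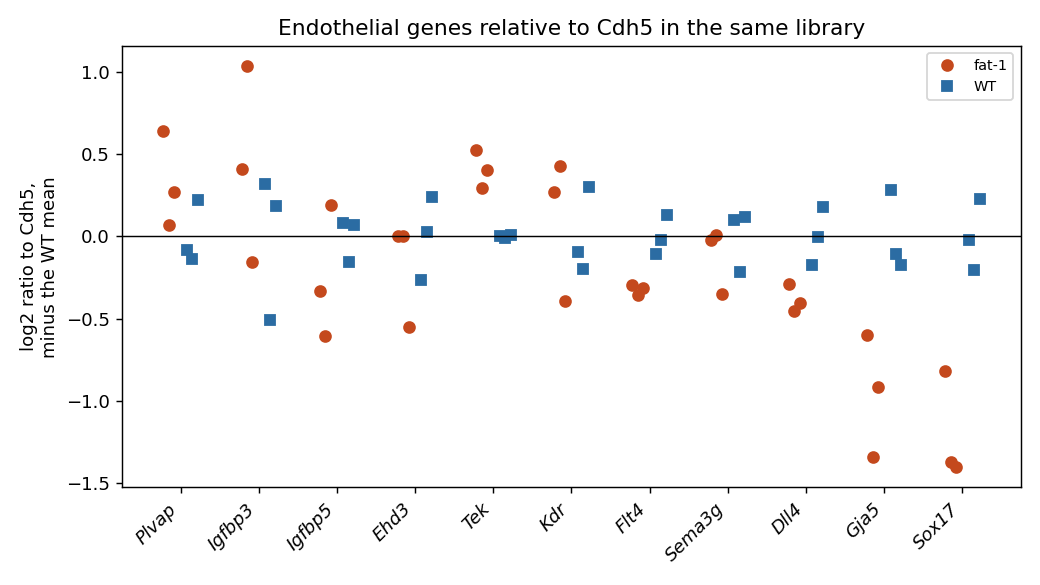
Log2 ratio of each gene to Cdh5 in the same library, minus the WT mean of that ratio (vertical axis), for 3 fat-1 (circles, left) and 3 WT libraries (squares, right). The fat-1 libraries lie below all WT libraries for Sox17, Gja5, Dll4 and Flt4, and above them for Tek, with the pseudocount of 1 plotted; with 0.1 the Flt4 groups overlap.

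The order of the libraries was similar for many members. Fat-1 replicate 3 had the highest value of all 6 libraries for 32 of the 50 genes and WT replicate 2 the lowest for 30. Within fat-1, replicate 1 was the lowest library for 35 genes, and within WT, replicate 1 was the highest for 32. The median deviation from the mean of all 6 libraries was 0.10, 0.34 and 0.51 in fat-1 replicates 1 to 3 and -0.15, -0.46 and -0.30 in WT replicates 1 to 3. For 10 tested members that leukocytes or macrophages also express, it was 0.14, 0.34 and 0.35 in fat-1 and 0.05, -0.50 and -0.44 in WT. WT replicate 1, the library with the highest sum of macrophage markers, was the WT library closest to fat-1 for these genes. It was also the closest over all 50 members. The same held for pan-endothelial genes not marked as known in other kidney cells (-0.24, -0.52 and -0.30 in WT). The part of leukocytes and macrophages was not tested. The 27 members that were not marked as known in other kidney cells had a median difference of 0.64, with 20 of 27 groups separate. The 23 that were marked had 0.47, with 7 of 23. In each of these separate pairs fat-1 was higher, an arrangement that 8.33% of all tested genes showed.

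**Figure D4:**
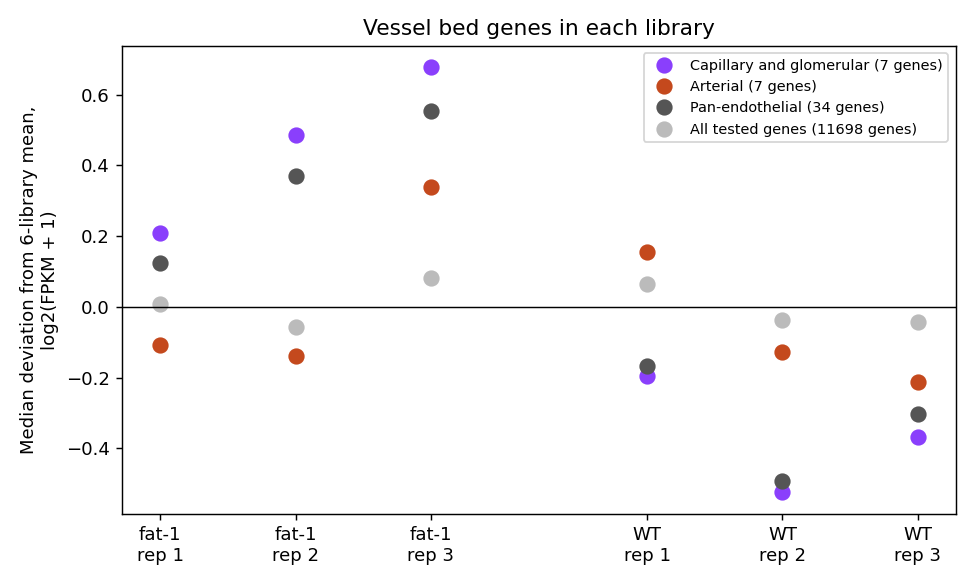
Deviation of genes from their mean over 6 libraries, on the log2(FPKM + 1) scale, as the median over genes in each library (vertical axis). Medians are over capillary and glomerular, arterial, pan-endothelial and all 11698 tested genes. Lymphatic genes are not plotted. Capillary, glomerular and pan-endothelial genes were above 0 in the 3 fat-1 libraries and below 0 in the 3 WT libraries, while arterial genes were above 0 in fat-1 replicate 3 and WT replicate 1.

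Endothelial genes outside the list were described by a second list of 51 names. Of 44 tested entries, 36 were positive, against 51.2% of all tested genes, with a median of 0.40. In 19 every fat-1 library lay above every WT library, against 8.33% of all genes. In limma 0 passed an adjusted p of 0.05, and at an unadjusted p under 0.05, 14 were higher and 0 lower, against 5.8% and 4.16% of all genes. Plat, the tissue plasminogen activator made by glomerular endothelium, measured 31.5, 39.2 and 47.4 FPKM in fat-1 against 19.6, 20.2 and 21.4 FPKM in WT (log2 difference 0.90 ± 0.16 SE; adjusted p = 0.103). Nrp1, a VEGF coreceptor, differed by 0.75 ± 0.14 (adjusted p = 0.118), Rgcc by 0.82 ± 0.16 (adjusted p = 0.125) and Gpihbp1, which holds lipoprotein lipase on capillaries, by 1.03 ± 0.22 (adjusted p = 0.142), all with separate groups. The venous factor gene Nr2f2 differed by -0.13 ± 0.15 and the peptide gene Edn1 by -0.11 ± 0.21, both with overlapping groups. The arterial ligand gene Efnb2 (0.52 ± 0.20) and the venous receptor gene Ephb4 (0.44 ± 0.12) were higher in fat-1 with separate groups. Notch1 (0.41 ± 0.24) overlapped. Vcam1 reached 47.5 FPKM in WT replicate 1 and lay between 5.90 and 14.6 FPKM in the other libraries. Both entries of the lymphatic chemokine gene Ccl21a were the most negative of the list, at -0.62 ± 0.42 and -0.55 ± 0.43. The lymphatic gene Pdpn differed by 0.06 ± 0.27, and the groups overlapped for Ccl21a and Pdpn alike.

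Markers of tubule cells had negative medians. Markers of the distal convoluted tubule were negative in 8 of 8 tested genes (median -0.58), of intercalated cells in 7 of 8 (median -0.41) and of principal cells in 6 of 8 (median -0.26). Thick limb markers were negative in 6 of 8, with a median of -0.05. Proximal tubule markers were mixed, negative in 6 of 10 with a median of -0.14, and the transporter genes Slc22a8 (0.98) and Slc13a3 (0.84), named after their values were seen, had every fat-1 library above every WT library. Fibroblast markers were negative in 6 of 8, with a median of -0.30. None of these markers passed an adjusted p of 0.05. Since FPKM are shares of a library, a lower share of one cell type and a higher share of another cannot be told apart from a change within cells.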

How the data were processed

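RNA-seq of whole kidney from 24-month-old mice was used, 3 fat-1 and 3 WT libraries, grouped by the genotype label. The authors deposited FPKM values per transcript; the build is mm10 per the submitters' processing notes, which also name DESeq2 1.20.0, featureCounts 1.5.0-p3 and HISAT2 2.0.5 with no role for each. Read counts were not used here, so the depth behind each FPKM value, and with it its counting error, is unknown.

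FPKM of transcripts with the same gene ID were summed, and genes with at least 1 FPKM in 3 or more libraries (11698 of 13696) were tested on log2(FPKM + 1) with limma 3.58.1 in R 4.3.3 (trended, robust empirical Bayes; Benjamini-Hochberg over all tested genes, threshold 0.05). Fold changes on this scale understate the change of low genes. Since the values are not counts, no count test was run. The script was tested on simulated data. Ratios to Cdh5 were compared with exact permutation tests. Intervals are 95% intervals.

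Members and lists were chosen with earlier results of these data known. The genes named in full are Plvap, the 12 members with the smallest p and a fixed set for each bed; other members are named by role to cover the list. Alternatives were other scalings, pseudocount, filters, transcript choice and left-out libraries. RNA of the transgene was not analysed here, and genotypes are as labelled. Replicate numbers only name the samples. Promoter sequences came from RefSeq, build GRCm38.p6. RNA levels of Lyve1 and Meox2 were not analysed here.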

Additional observations from a re-analysis of the deposited data

How the results depend on the processing

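The Plvap call was at the threshold. The number of members called was 1, and it was 0 with median-of-ratios scaling (Plvap adjusted p = 0.0516 in limma), a pseudocount of 0.1 (0.0544), no filter (0.0592) or the highest transcript only (0.0896), and 2, Plvap and Tek, with quantile normalization or a filter at a mean of 5 FPKM. It was 0 to 0 when any 1 library was left out (Plvap difference 1.12 to 1.32, adjusted p = 0.0647 to 0.197). With fat-1 replicate 3 and WT replicate 1 left out together, an alternative chosen after seeing the data, it was 0 (0.0980). Of all genes, 21 were called; the count was 10 with median-of-ratios scaling, 34 with quantile normalization, 33 scaled to the non-mitochondrial sum, 4 with no filter, 41 at a mean of 5 FPKM, 3 with the highest transcript only, 0 to 26 with 1 library left out, and 0 without both libraries, where 1461 genes had an unadjusted p under 0.05. The cause was not tested.

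The median over members stayed between 0.49 and 0.71 in 16 alternatives, that of capillary and glomerular genes between 0.72 and 0.94, and that of pan-endothelial genes between 0.50 and 0.69. The arterial median was -0.20 to 0.11 with 1 library left out and 0.41 at a mean of 5 FPKM, where 2 arterial genes were tested. The lymphatic median was 0.03 to 0.58 with 1 library left out. Of 50 members, 43 kept their direction in 13 other fits on the same genes, while Cldn5, Gja5, Icam2, Jag1, Ly6a, Prox1 and Slc6a6 did not. The fit without the robust option, counted among these alternatives, leaves every difference unchanged. It could not alter a direction or a median. No paired analysis was possible because the labels give the 2 groups no shared replicate numbers; those used here follow sample order and only name samples. Depth is unknown, and 3 libraries a group limit the precision.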
